A study of Mus musculus with 6 samples.

Results

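Toll-like receptors are membrane proteins that bind molecules of microbes or nucleic acids released from damaged cells, some at the cell surface and some inside endosomes. Endotoxin, the lipopolysaccharide of Gram-negative bacteria, is picked up in plasma by LBP, handed to CD14 and passed on to the complex of TLR4 with LY96, and most of these receptors signal through the adaptor MYD88 to NF-kappaB. Blood from the gut reaches the liver first, where hepatocytes secrete LBP and macrophages, sinusoidal endothelial cells and stellate cells carry receptors. The 10 genes described here, Lbp, Cd14, Ly96, Tlr4, Tlr2, Tlr5, Tlr3, Tlr7, Tlr9 and Myd88, were taken by gene symbol from the 17975 genes of the deposited table, and all 10 were present and had enough counts to be tested.

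Whole liver RNA was sequenced from 3 WT mice and 3 Hom mice, 1 liver per mouse. Hom mice carry floxed NEK7 on both alleles (NEK7 fl/fl) with Alb-Cre, a Cre recombinase driven by the albumin promoter. The study describes the deletion as specific to hepatocytes, and Nek7 in the other cells of these livers was not measured separately. The breeding scheme of the study counts mice with NEK7 fl/fl alone or Alb-Cre alone as WT, and which of these the 3 sequenced WT mice were is not given in the sources used here. The study gives different ages for its mice, in weeks or in months, and describes liver fibrosis of Hom mice at an age of months. It used both sexes in its knock-out experiments. The age and sex of each sequenced mouse were not found in the sources used here. No mouse was described as treated.

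The libraries held 19349418 to 19730236 estimated counts over all genes. Values per liver are given as CPM, which are counts scaled to a common library size after TMM normalisation, a correction for library composition whose factors were 0.806 to 0.924 in WT and 1.09 to 1.23 in Hom livers. Differences are log2 fold changes of Hom against WT with their standard error and the adjusted p of edgeR's quasi-likelihood test over 13805 genes. Nek7 fell from 65.2 ± 3.36 CPM in WT livers (SD, n = 3) to 16.4 ± 1.83 in Hom livers (SD, n = 3). A pair of livers stood apart from their groups. Of 4 Y-linked genes, Hom replicate 1 had 0 counts of Ddx3y and of Kdm5d, 4 of Eif2s3y and 149 of Uty, where each other liver had 243 or more of each. WT replicate 1 had the highest neutrophil transcripts of its group, and Ngp, a neutrophil granule gene, was at 57.0 CPM there and at 0 and 0.0614 CPM in WT replicates 2 and 3. Counts were also taken with each liver left out.

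Of the 10 genes, 5 rose in Hom livers and 0 fell. The share of all tested genes that rose was 21.5%, and 20.1% fell. The genes that rose were Cd14, the endotoxin co-receptor, and 4 receptors, Tlr2, Tlr3, Tlr4 and Tlr9. In these 5 genes every Hom liver lay above every WT liver in CPM, a pattern that 28.7% of all tested genes showed (27.0% showed the opposite one), and in the other 5 the groups overlapped. Lbp, Ly96, Myd88, Tlr5 and Tlr7 did not pass the test. Over the 10 genes the log2 fold change had a median of 0.96, and over all tested genes one of 0.00. The same 5 genes were called without WT replicate 1 and without Hom replicate 1. RNA of whole tissue cannot tell more cells of a type apart from more RNA per cell.

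**Figure D1:**
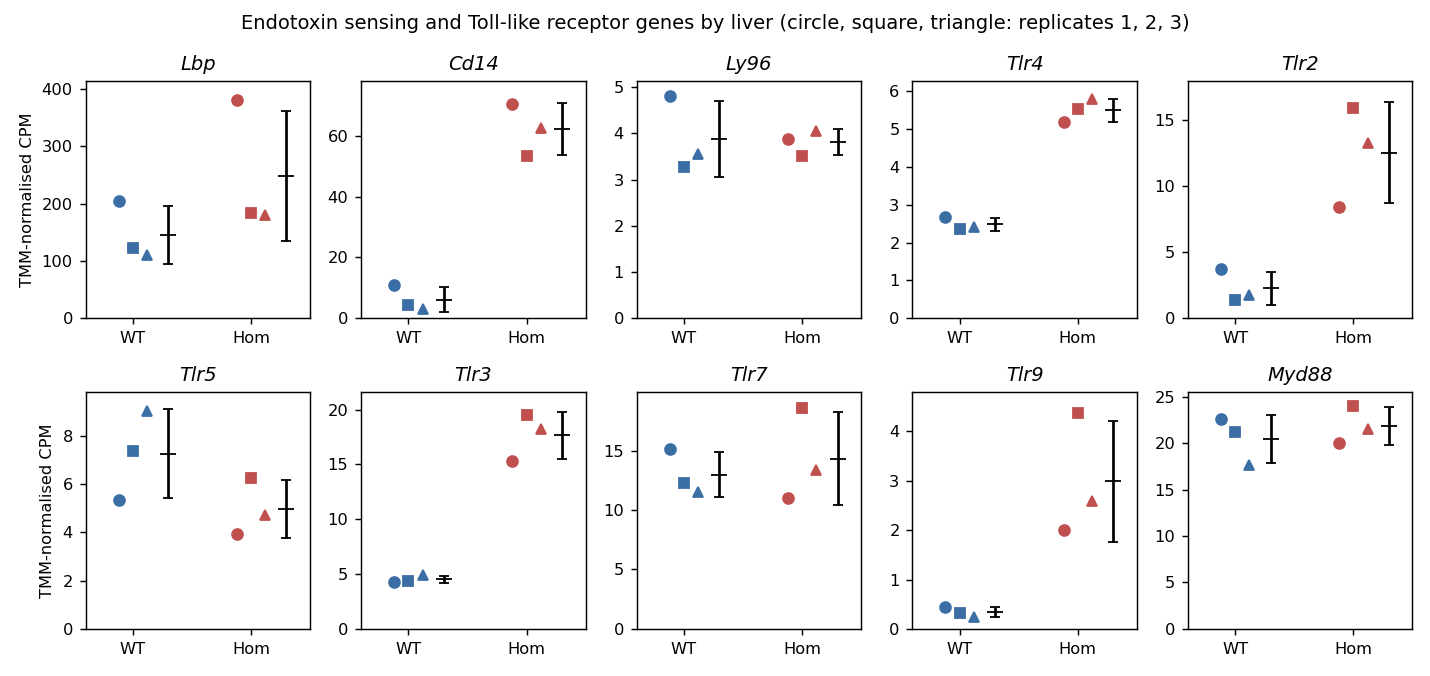
TMM-normalised CPM (vertical axes, linear, starting at 0) of the 10 genes in each WT (blue) and Hom (red) liver; circles, squares and triangles are replicates 1, 2 and 3, and the black bars are the mean ± SD of 3 livers. Hom livers sit above WT livers without overlap for Cd14, Tlr4, Tlr2, Tlr3 and Tlr9, and the groups overlap for Lbp, Ly96, Tlr5, Tlr7 and Myd88.

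RefSeq promoter windows were found for 5 of the 10 genes, Tlr2, Tlr3, Tlr5, Tlr9 and Myd88, and the 250 bases before each start site were searched on both strands for the binding motif of NF-kappaB (the kappaB consensus) and for AGGAAG, a core of sites of the Ets factor PU.1 of myeloid cells. The kappaB consensus was present in 2 of the 5, Tlr2 and Tlr3, and in 7.25% of 32851 windows of all genes. These stretches of 30 bases on GRCm38.p6 are shown because both genes rose, with the matched bases in capitals.
Tlr2, chr3:83841762-83841791, minus strand: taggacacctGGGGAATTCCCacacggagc
Tlr3, chr8:45410572-45410601, minus strand: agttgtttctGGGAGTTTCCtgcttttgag
The capitals of Tlr2 hold 3 overlapping matches counted over both strands and end 163 bases before the start site, and those of Tlr3 hold 1 match. Both stretches overlap annotated exons in GENCODE M21.

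The core AGGAAG was present in Tlr2 and Tlr9 and in 29.5% of all windows, and it overlapped no kappaB match. The Tlr9 window, which overlaps no annotated exon, is shown because Tlr9 also rose and lacks the kappaB letters; its 250 bases lie at chr9:106222348-106222597 on the plus strand, with the core in capitals.
Tlr9: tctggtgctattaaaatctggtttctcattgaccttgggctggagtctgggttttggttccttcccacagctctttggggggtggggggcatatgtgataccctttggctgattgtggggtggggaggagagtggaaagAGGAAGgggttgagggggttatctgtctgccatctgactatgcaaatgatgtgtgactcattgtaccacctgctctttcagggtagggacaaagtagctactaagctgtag
Tlr5 and Myd88, which did not pass the test, held neither set of letters. A match is a description of the letters, and binding was not measured.

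Lbp and Cd14 encode the carrier and the co-receptor of endotoxin. Lbp, the plasma carrier, was at 204, 122 and 111 CPM in WT livers and at 380, 184 and 181 CPM in Hom livers. Hom replicate 1 was the highest of the 6 livers, and the other Hom livers lay under WT replicate 1. The log2 fold change of Lbp was 0.77 (standard error 0.357, adjusted p = 0.124), and without Hom replicate 1 it was 0.33. Lbp passed the test under some alternatives and was positive in value under all that were run. With DESeq2 the adjusted p was 0.045, and with library size alone, a scaling that raised the median of all genes by 0.45, it was 0.0269. The estimated counts of Lbp were not whole in any liver, so that some of its reads were divided with other genes.

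Cd14, a membrane protein mainly of monocytes and macrophages, was at 10.9, 4.49 and 3.01 CPM in WT livers and at 70.7, 53.5 and 62.8 CPM in Hom livers. The lowest Hom liver was well above the highest WT liver, and WT replicate 1 was the highest of its group. Cd14 rose by 3.33 on the log2 scale (standard error 0.426, adjusted p = 0.00165), the largest rise of the 10 genes, and by 4.05 without WT replicate 1. Without Hom replicate 1, Cd14 rose by 3.23 and Tlr9 rose more, by 3.33. The ratio of Cd14 to Lbp within a liver, which does not depend on scaling, was −4.72 ± 0.489 in WT livers (log2, SD, n = 3) and −1.91 ± 0.462 in Hom livers (SD, n = 3). It was higher in 3 of 3 Hom livers than in any WT liver (p = 0.1 in an exact permutation test, two-sided, which cannot go lower with 3 against 3).

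Tlr4 and Ly96 encode the receptor complex. Tlr4 was at 2.68, 2.37 and 2.40 CPM in WT livers and at 5.18, 5.52 and 5.78 CPM in Hom livers. Livers of 1 group lay close together and the groups did not overlap. Tlr4 rose by 1.14 (standard error 0.166, adjusted p = 0.00258). Ly96, the secreted partner that binds the lipid part of endotoxin on TLR4, was at 4.80, 3.27 and 3.56 CPM in WT livers and at 3.87, 3.50 and 4.05 CPM in Hom livers. Its log2 fold change was −0.03 (standard error 0.207, adjusted p = 0.922), with a sign that changed under library size alone (0.41, adjusted p = 0.199). The log2 ratio of Ly96 to Tlr4 was 0.62 ± 0.194 in WT livers (SD, n = 3) and −0.53 ± 0.119 in Hom livers (SD, n = 3), with no overlap (exact two-sided permutation test, p = 0.1).

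Of the other surface receptors, Tlr2, which senses bacterial lipoproteins together with TLR1 or TLR6, was at 3.69, 1.35 and 1.78 CPM in WT livers and at 8.40, 15.9 and 13.3 CPM in Hom livers. Hom replicate 1 was the lowest Hom liver and still above the highest WT liver. Tlr2 rose by 2.45 (standard error 0.407, adjusted p = 0.00417). Within a liver, the log2 ratio of Tlr2 to Tlr4 was −0.26 ± 0.645 in WT and 1.14 ± 0.417 in Hom livers (SD, n = 3 each; exact two-sided permutation test, p = 0.1), and that of Cd14 to Tlr4 was 1.08 ± 0.86 and 3.49 ± 0.251 (SD, n = 3 each; exact two-sided permutation test, p = 0.1). Neither ratio overlapped between the groups.

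Tlr5, the flagellin receptor, was at 5.36, 7.38 and 9.03 CPM in WT livers and at 3.92, 6.27 and 4.74 CPM in Hom livers. The groups overlapped, and Tlr5 had the lowest log2 fold change of the 10 genes, −0.54 (standard error 0.255, adjusted p = 0.129). With library size alone it was −0.06.

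The endosomal receptors bind nucleic acids. Tlr3, the receptor for double-stranded RNA, which signals through TRIF (Ticam1) and not through MYD88, was at 4.24, 4.36 and 4.92 CPM in WT livers and at 15.3, 19.5 and 18.2 CPM in Hom livers. The groups were far apart and each was narrow. Tlr3 rose by 1.97 (standard error 0.14, adjusted p = 3.12e-04), the smallest adjusted p of the 10 genes. Tlr9, the receptor for unmethylated CpG DNA, had 8, 5 and 4 counts in WT livers and 43, 106 and 60 counts in Hom livers, or 0.338 ± 0.102 CPM (SD, n = 3) and 2.99 ± 1.23 CPM (SD, n = 3). It rose by 3.11 (standard error 0.427, adjusted p = 0.00207), from a level at which few counts limit the precision.

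Tlr7, a receptor for single-stranded RNA on the X chromosome, was at 15.1, 12.3 and 11.5 CPM in WT livers and at 11, 18.6 and 13.4 CPM in Hom livers. Hom replicates 1 and 2 were the lowest and the highest of all 6 livers. The log2 fold change was 0.15 (standard error 0.211, adjusted p = 0.603), 0.31 without Hom replicate 1, the liver with low Y-linked counts, and −0.08 without Hom replicate 2. As for Lbp, its estimated counts were not whole in any liver.

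Myd88, the adaptor that most of these receptors share, was at 22.6, 21.2 and 17.6 CPM in WT livers and at 20.0, 24.0 and 21.5 CPM in Hom livers. The groups overlapped over most of their range, and the log2 fold change was 0.10 (standard error 0.124, adjusted p = 0.565). With library size alone it was 0.55 (adjusted p = 0.0291). The log2 ratio of Myd88 to Tlr4 was 3.02 ± 0.147 in WT and 1.99 ± 0.117 in Hom livers (SD, n = 3 each), without overlap (exact two-sided permutation test, p = 0.1). All 5 ratios tested had an adjusted p of 0.1 over the 5 (exact permutation test).

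**Figure D2:**
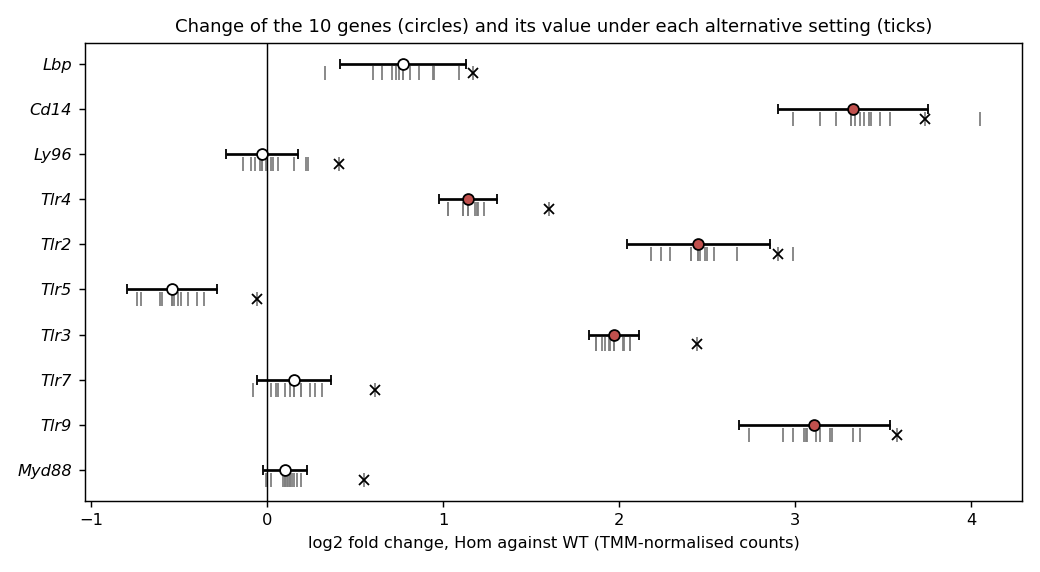
Log2 fold change of Hom against WT (horizontal axis) for the 10 genes, with the standard error as bars; filled circles have an adjusted p under 0.05. Grey ticks are the values under each alternative setting and the cross is library size alone, which moves each gene upward; Cd14, Tlr4, Tlr2, Tlr3 and Tlr9 stay above 0 in all of them, and the ticks of Ly96 fall on both sides of 0.

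Levels of different genes were compared in TPM, the deposited unit that allows for gene length. In WT livers Lbp had the highest level, 87.1 ± 41.2 TPM (SD, n = 3), and its range did not reach that of the next gene, Myd88, at 15.7 ± 3.49 TPM (SD, n = 3). Myd88, Ly96 (10.4 TPM), Cd14 (5.78 TPM), Tlr7 (3.49 TPM) and Tlr5 (3.10 TPM) followed, each with a range that overlapped that of its neighbour. Tlr3 (1.5 TPM) and Tlr2 (1.21 TPM) overlapped each other, Tlr4 was lower at 0.46 TPM, and Tlr9 was lowest at 0.147 TPM. Mean levels of the receptors were thus below those of the carrier and the adaptor in WT livers.

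In Hom livers Lbp was again first, at 218 ± 82.6 TPM (SD, n = 3), and Cd14 was second, at 85.1 ± 6.38 TPM (SD, n = 3), apart from both of its neighbours. Cd14 had ranked 4 in WT livers, with a range overlapping those of Ly96 and Tlr7. Myd88 (25.8 TPM) and Ly96 (15.2 TPM) followed. Tlr2 (10.0 TPM), Tlr3 (9.19 TPM), Tlr7 (6.0 TPM), Tlr5 (3.37 TPM), Tlr9 (1.97 TPM) and Tlr4 (1.56 TPM) formed a run in which each neighbouring pair overlapped. In TPM the groups of Lbp, Ly96 and Myd88 did not overlap, whereas in CPM they did. TPM carries no TMM factor and allows for gene length, and the part of each in this difference was not tested. Ly96 had 86 counts in WT replicate 1 and 83 in Hom replicate 1, and 14.15 and 14.27 TPM.

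**Figure D3:**
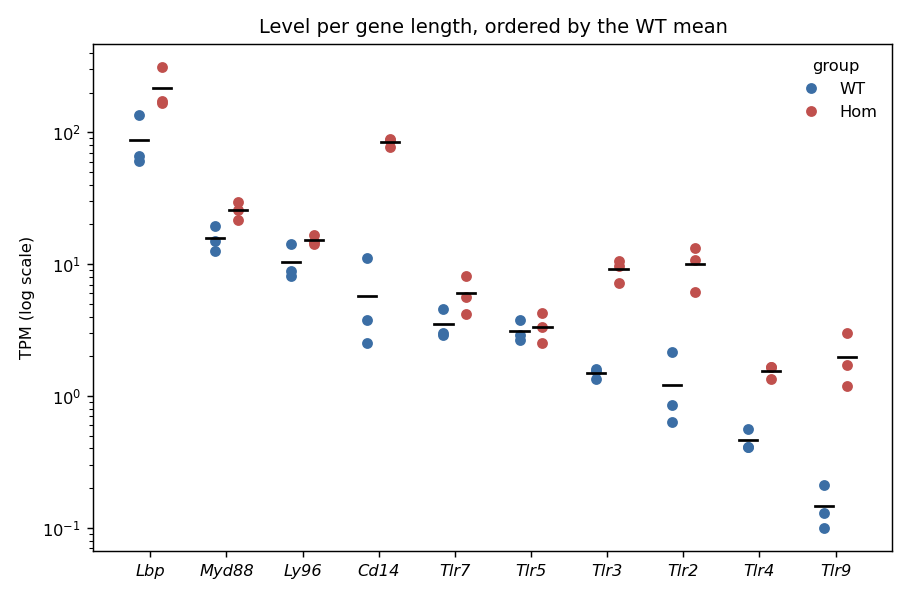
TPM (vertical axis, log scale) of the 10 genes in each WT (blue) and Hom (red) liver, in the order of their WT means; black bars are group means. Cd14 moves from 5.78 TPM in WT livers to 85.1 TPM in Hom livers, while Lbp is the highest gene in both groups and Tlr4 stays under 2 TPM in all 6 livers.

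For Lbp, Cd14 and Tlr4 the 3 genes with the most similar profile over the 6 livers were looked up among 12472 genes, by the root mean square difference of log2 CPM after each gene was centred on its own mean. For Lbp these were Tspan15 (difference 0.125), Ctsc (0.162) and Itih3 (0.18), and in each of them Hom replicate 1 was the highest liver. For Cd14 they were Mtmr11 (0.218), Cybb (0.262), a subunit of the phagocyte NADPH oxidase, and Trem2 (0.276), a receptor of lipid-associated macrophages. For Tlr4 they were Ctps2 (0.058), Cda (0.063) and Frmd6 (0.073), which differed little between livers of 1 group. These lists describe similarity over 6 livers only.

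Around these genes, 8 lists of the pathway held 96 genes, of which 84 were tested, 38 rose and 9 fell, with a median log2 fold change of 0.54. Among all tested genes, 21.5% rose and 20.1% fell. Without WT replicate 1, 42 of the pathway genes rose and 8 fell, and without Hom replicate 1, 34 rose and 9 fell. The fewest that rose were 27, without WT replicate 2, WT replicate 3 or Hom replicate 2. With library size alone 58 rose and 1 fell.

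Among 8 further receptor genes, 7 were tested, 6 rose and 0 fell, against 21.5% and 20.1% of all tested genes, with a median of 1.61. Tlr1, a partner of TLR2, rose by 2.96 (standard error 0.347, adjusted p = 0.00125), Tlr12 by 1.61 (adjusted p = 0.00152) and Tlr13, a receptor for bacterial ribosomal RNA, by 2.04 (adjusted p = 0.00232). Cd180 and Ly86, a receptor and its partner that resemble TLR4 and LY96, rose by 1.99 and 1.53 (adjusted p = 0.0141 and 0.0213). Tlr8 rose by 1.15 (adjusted p = 0.0412), and its adjusted p was 0.0113 without WT replicate 1 but 0.064 without Hom replicate 1. Tlr6 was just outside it (0.97, adjusted p = 0.0518) and Tlr11, with 29 counts or fewer in each liver, was not tested. Without WT replicate 2, WT replicate 3, Hom replicate 2 or Hom replicate 3 in turn, the adjusted p of Tlr8 was 0.129, 0.108, 0.136 and 0.0589, and that of Ly86 was 0.0774, 0.061, 0.0665 and 0.0523. Tlr8 and Tlr13 also lie on the X chromosome.

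Of 8 genes for receptor chaperones and trafficking, 2 rose and 2 fell, shares near those of all tested genes (21.5% and 20.1%), with a median of −0.17 that turned to 0.28 under library size alone. Rab7b, a late endosomal GTPase, rose by 1.85 (adjusted p = 0.00116) and Unc93b1, which carries the endosomal receptors out of the endoplasmic reticulum, rose by 0.76 (adjusted p = 0.019). Cnpy3, a chaperone of Toll-like receptors, fell by 0.63 (adjusted p = 0.00144), and Tram1, a protein of endoplasmic reticulum translocation and not the adaptor TRAM, fell by 0.57 (adjusted p = 0.0107). Neither was past the threshold with library size alone (−0.17 and −0.12). The number that rose was 1 without WT replicate 2, WT replicate 3, Hom replicate 2 or Hom replicate 3.

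Of 18 adaptors and kinases, 5 rose and 4 fell, again near the shares of all tested genes, with a median of 0.01. Irak4, the first kinase after MYD88, rose by 1.03 (adjusted p = 0.00353), and Traf3, a ubiquitin ligase, by 0.69 (adjusted p = 0.00398). Ticam2, Tab1 and Tbk1 also rose. Chuk, a kinase of the IkappaB kinase complex, fell by 0.40 (adjusted p = 0.0064), and Tirap, Irak2 and Map3k7 fell as well. With library size alone 12 rose and 0 fell. The number that rose was 3 without WT replicate 2, Hom replicate 1 or Hom replicate 2 and 2 without WT replicate 3, and the number that fell was 2 without WT replicate 2 or 3.

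Of 8 transcription factors of the pathway, 4 rose and 1, Irf3, fell by 0.36 (adjusted p = 0.00758). The shares of all tested genes that rose and fell were 21.5% and 20.1%. With library size alone 6 of these factors rose and 0 fell. In TPM, Irf3 was higher in every Hom liver than in every WT liver. Nfkb2 and Relb, the pair of the noncanonical NF-kappaB arm, rose by 1.44 and 2.51 (adjusted p = 7.54e-04 and 0.00323), Nfkb1 rose by 0.42 (adjusted p = 0.00641) and Rel also rose. Of 12 tested negative regulators, 5 rose and 1, Dusp1, a phosphatase of MAP kinases, fell by 1.51 (adjusted p = 0.00156). Irak3, a kinase-dead relative of Irak4 that holds back MYD88 signalling, rose by 3.53 (adjusted p = 9.63e-04), Tnfaip3, a ubiquitin-editing enzyme, by 2.41 (adjusted p = 5.86e-04), and Nfkbie, an inhibitor of NF-kappaB, by 2.23 (adjusted p = 6.37e-04). The number of negative regulators that rose was 3 without WT replicate 3, Hom replicate 1 or Hom replicate 2.

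**Figure D4:**
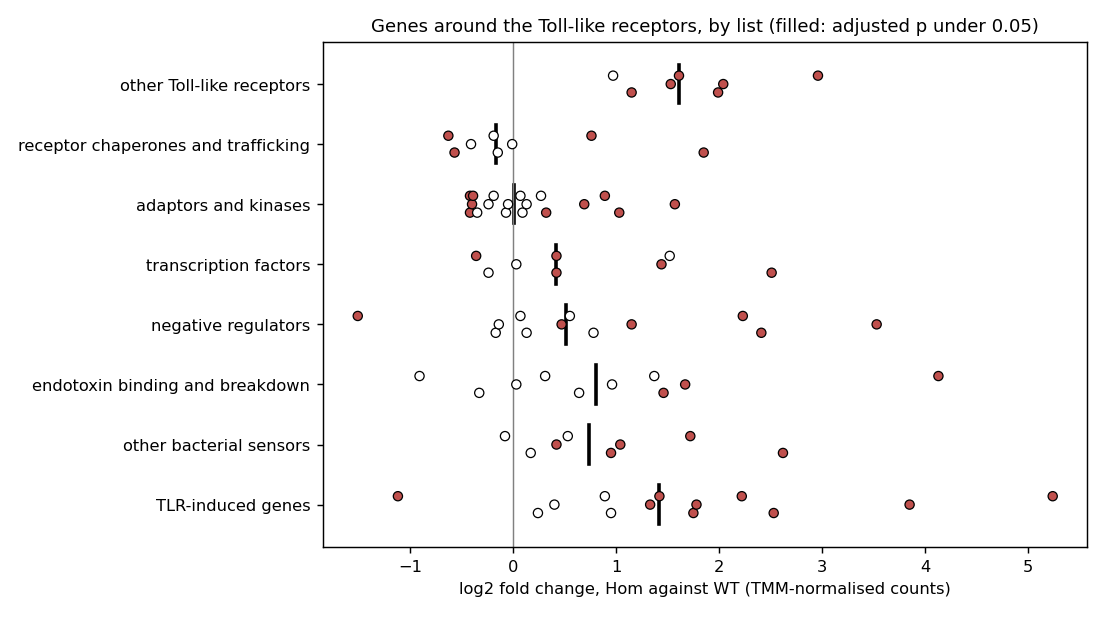
Log2 fold change of Hom against WT (horizontal axis) of each tested gene in 8 lists around the Toll-like receptors; filled points have an adjusted p under 0.05 and the black bar is the list's median. The medians run from −0.17 for receptor chaperones and trafficking to 1.61 for the other Toll-like receptors.

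Of 10 tested genes that bind or break down endotoxin, 3 rose and 0 fell, against 21.5% and 20.1% of all tested genes, and 6 rose without WT replicate 1. Casp4, which in mice encodes the cytosolic endotoxin receptor, had 19, 14 and 19 counts in WT livers and 364, 491 and 418 counts in Hom livers. It rose by 4.13 (standard error 0.16, adjusted p = 9.42e-05). Alpl, a phosphatase that acts on endotoxin among other substrates, rose by 1.67 (adjusted p = 0.00102), and Aoah, which removes fatty acid chains from endotoxin, by 1.46 (adjusted p = 0.0121).

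Of 8 tested genes for other sensors of microbes, 5 rose, 0 fell and 3 did not pass the test. The shares of all tested genes that rose and fell were 21.5% and 20.1%. Clec7a rose most, by 2.62 (adjusted p = 0.00325), and Pglyrp2 rose by 0.42 (adjusted p = 0.0475). Nod1, a cytosolic sensor of peptidoglycan, rose by 1.04 (adjusted p = 0.0015) and its kinase Ripk2 by 0.95 (adjusted p = 0.00215). Naip2, an inflammasome sensor whose reads can be divided with near-identical Naip genes, rose by 1.72 (adjusted p = 0.00163). Of 20 genes that Toll-like receptors induce, 13 were tested, 8 rose and 1, Saa3, fell by 1.12 (adjusted p = 0.034). Nos2, inducible nitric oxide synthase, had 3, 0 and 2 counts in WT livers and 29, 36 and 40 in Hom livers and rose by 3.85 (adjusted p = 0.00303), or by 4.47 without WT replicate 1. The chemokines Ccl2 and Cxcl10 rose by 2.53 and 1.33 (adjusted p = 0.0017 and 0.00286). Without WT replicate 2, 5 of the induced genes rose. Saa3 no longer fell without WT replicate 1, WT replicate 3, Hom replicate 2 or Hom replicate 3. The same held with library size alone and with a correction for gene length.

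Markers of the cells that carry these receptors moved in both directions in the same livers, and their part in the changes was not tested. Over all tested genes, 21.5% rose and 20.1% fell. The summed level of 6 pan-macrophage markers was 172 to 362 CPM in WT and 505 to 681 CPM in Hom livers, and 4 of the 6 rose. The summed level of 6 markers of monocyte-derived macrophages was 3.98 to 12.7 CPM in WT and 64.9 to 92.0 CPM in Hom livers, and 4 of the 6 rose. In contrast, 6 Kupffer cell markers, those of the resident macrophage, summed to 138 to 370 CPM in WT and 59.6 to 109 CPM in Hom livers, with 3 lower and 0 higher. None of these 18 marker genes was at 0 in all livers. The number of pan-macrophage markers that rose was 1 without WT replicate 2, WT replicate 3 or Hom replicate 2 and 2 without Hom replicate 3, and 1 Kupffer cell marker fell without Hom replicate 3. The median log2 fold change of the Kupffer cell markers was −1.42, and −0.82 without WT replicate 1.

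Sinusoidal endothelial markers, another carrier of Tlr4 and Tlr9, fell in 7 of 9 genes and rose in 0, and their sum was 280 to 376 CPM in WT and 161 to 166 CPM in Hom livers. Of 12 hepatocyte markers, the cells that make Lbp, 9 fell and 0 rose, with a median of −1.13, and 5 fell without Hom replicate 3. Of 9 stellate cell markers 2 rose and 2 fell, shares near those of all tested genes (21.5% and 20.1%). Of 8 cholangiocyte markers 7 rose. B cell markers were near the limit of counting, at 1.48 to 4.64 CPM in WT and 2.59 to 4.41 CPM in Hom livers for all 6 together, and 4 of the 6 had too few counts to be tested. None of 8 tested neutrophil markers and none of 6 tested dendritic cell markers passed the test, while 4 neutrophil markers rose without WT replicate 1, and 2 of 6 tested T and NK cell markers rose. Without WT replicate 1, 1 B cell marker and 1 dendritic cell marker rose, and without Hom replicate 1, 2 dendritic cell markers. T and NK cell markers that rose numbered 0 without WT replicate 2, Hom replicate 2 or Hom replicate 3 and 1 without WT replicate 3, and 1 stellate cell marker rose without WT replicate 2, Hom replicate 2 or Hom replicate 3.

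**Figure D5:**
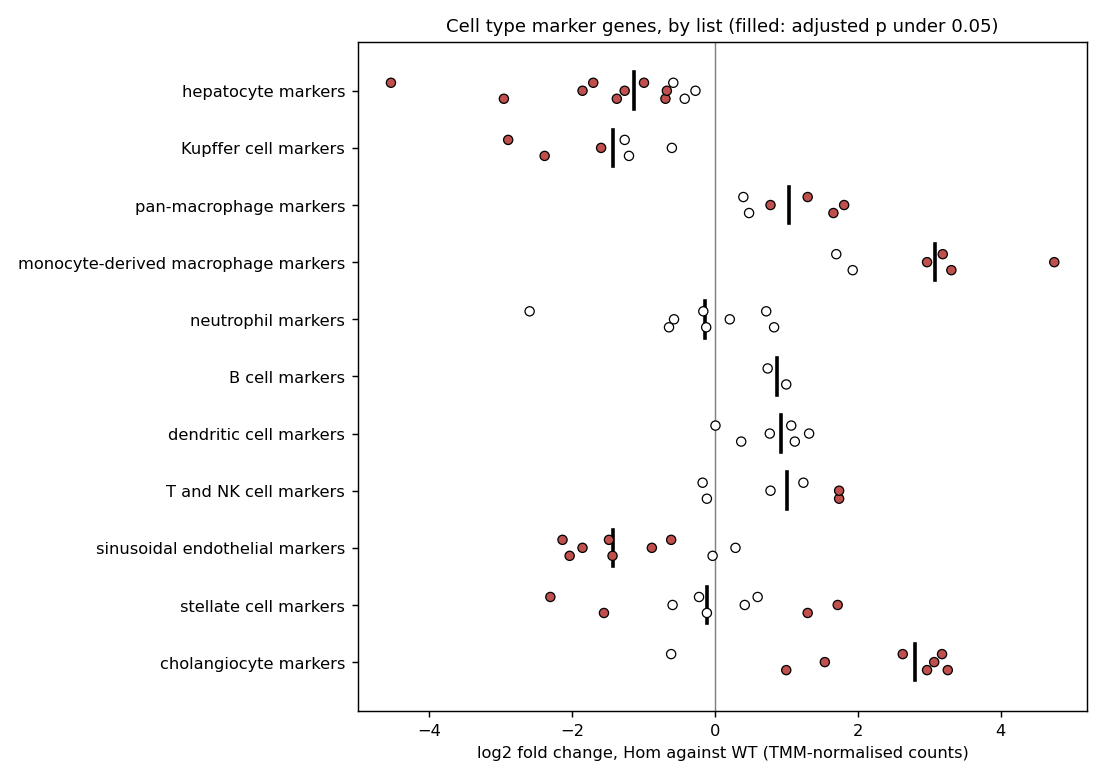
Log2 fold change of Hom against WT (horizontal axis) of each tested marker gene, by cell type; filled points have an adjusted p under 0.05 and the black bar is the list's median. Kupffer cell and sinusoidal endothelial markers lie mostly left of 0, with medians of −1.42 and −1.43, and pan-macrophage and monocyte-derived macrophage markers lie right of 0, with medians of 1.04 and 3.08.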

How the data were processed

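Liver RNA was sequenced on DNBSEQ by BGI Genomics. Per the labels, the submitters' processing notes name HISAT2 2.0.4, Bowtie2 2.2.5, RSEM 1.2.12 and the build mm9; annotation and strandedness are not given in the sources used here. The authors deposited estimated counts (not scaled), FPKM (per gene length and library size) and TPM (per gene length, with equal sums in all livers) for each liver. The deposited group means carry crossed names for all 17975 genes and were not used.

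After rounding of the estimated counts, edgeR 4.0.16 under R 4.3.3 was used (filterByExpr, TMM, glmQLFit and glmQLFTest, Benjamini-Hochberg over 13805 genes, adjusted p under 0.05, no minimum fold). No FPKM value entered a test except to derive gene length (FPKM of at least 0.1). Ratios used counts + 0.5. Standard errors came from the fold change and F statistic. Library totals were 19349418 to 19730236, so precision is limited mainly for genes with few counts. No pair of replicates was close enough to be 1 library (the smallest chi-square over its degrees of freedom was 23.8). Simulated data were used to test the procedure.

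Members, gene lists and tests were chosen with earlier results of these data known. Named were all 10 genes, Nek7, every further receptor, the 3 smallest adjusted p-values past the threshold in each list and the 3 most similar profiles for Lbp, Cd14 and Tlr4 among genes of at least 1 CPM; genes completing a count of 5 or fewer, single markers and Y-linked genes were named after their values were seen. Promoters are RefSeq's on GRCm38.p6, not the build of the files. Alternatives were DESeq2 1.42.0, upper-quartile factors, library size alone, a replicate block, a loess correction for gene length, no filter or a minimum of 10 counts per liver, and each liver left out. Same-numbered livers are different mice.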

Additional observations from a re-analysis of the deposited data

How the results depend on the processing

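Of 139 comparisons of the 10 fold changes with an alternative, 125 kept their direction and side of the threshold, 5 passed it newly and 9 changed sign; no called gene was lost where it was tested, and Tlr9 was not tested under a minimum of 10 counts per liver. Lbp passed with DESeq2 (0.77), library size alone (1.17), the replicate block (0.73, adjusted p = 0.00889) and the block with the gene length correction (0.71, adjusted p = 0.01), and Myd88 with library size alone (0.55). The sign changed for Ly96 with library size alone (0.41), upper-quartile factors (0.06), a minimum of 10 counts per liver (0.02), the gene length correction without and with the block (0.22 and 0.23), without WT replicate 1 (0.15) and without Hom replicate 2 (0.03), in a range of −0.14 to 0.15 with each liver left out. It also changed for Tlr7 without Hom replicate 2 (range −0.08 to 0.31) and for Myd88 without WT replicate 3 (range −0.01 to 0.17). The main values of Ly96, Tlr7 and Myd88 were near 0 (−0.03, 0.15 and 0.10), and the cause of the sign changes was not tested.

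With library size alone, all genes numbered 6574 higher and 642 lower and the pathway lists 58 higher and 1 lower, since that scaling moved the median of all genes by 0.45. Leaving out 1 liver gave 1986 to 3057 genes higher and 1767 to 2750 lower, the lowest without Hom replicate 3 and 1829 without Hom replicate 2. With the replicate block, 2383 genes were higher and 2214 lower, and 6 of the 10 genes rose. Same-numbered livers did not deviate together (correlations of deviations from the group means −0.109, −0.064 and −0.065). The 5 ratios kept their direction with an added count of 1 and with each liver left out. Few counts in WT livers limit Tlr9 and Nos2. They also limit Tlr1 (19, 7 and 17 counts) and Ticam2 (10, 3 and 5 counts), among others.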
